A study of Botryllus schlosseri with 78 samples.

Results

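BSA-sorted vascular cells (BSA is not spelled out in the labels) were compared with ampullae of Botryllus schlosseri, a colonial tunicate. The comparison was set by sample titles: the BSA libraries SB04, SB05 and SB06 against 16 ampullae libraries of 5 lines, averaged to 1 value per line. BSA libraries SB07-09 and SB10-11, whose titles give a range, were sparse and are described apart, so that 21 of the 78 libraries of the series were involved. The other libraries were blood (3), whole bodies, male colonies, and cells sorted by integrin alpha-6 (IA6) or aldehyde dehydrogenase (ALDH). The BSA library SB01-03 has no values here and was not analysed.

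The BSA cells were sorted by flow cytometry, per the labels. Ampullae libraries came from SB825-FX (3), SB825-FEA (3), SB825-FDA (3), SMGO (4, of which 2 are named technical and were averaged as 1) and SMH (3), and this is the order of lines in every list of values here. Blood came from the individuals FL3, FLLC2 and LFC4. No label gives the colony or genotype of a BSA library, the stage, or the number of animals or cells pooled. Genotype and cell type therefore cannot be told apart in any difference between BSA cells and ampullae or blood. This holds for receptors, Fuhc products and signalling transcripts. The labels also do not say whether SB04, SB05 and SB06 came from separate colonies, so their spread may be technical variation. The p-values rest on that spread pooled with the spread among ampullae lines or blood libraries.

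Botryllus colonies meet through their ampullae, the contractile blind ends of the vessels that run through the shared tunic. Contact leads to fusion or to a rejection reaction, and the outcome follows the alleles at the Fuhc locus. Fester-type receptors on ampullae and blood cells take part in that recognition, and signalling proteins familiar from immune receptors of other animals carry the response in the cell. The table measured here holds 137 transcripts: 45 named FF, read here as the fester family; 69 named FcoR, found by searches that began from fester sequences per the series record; 4 products of the Fuhc locus; and 19 signalling proteins. No row carries the name of a vascular, haemocyte, muscle or germline marker, so the labelled cell type could not be checked against markers. In such bulk libraries, fewer cells of a type and less RNA per cell cannot be told apart.

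Values are read as TMM-scaled TPM, a length-corrected abundance. A transcript was called detected at a value of at least 1. Library sums were 630777 to 946855 in SB04 to SB06 and 782151 to 1263430 in ampullae libraries. Depth per library is unknown, but the lowest nonzero value was 84.1 to 169 in the BSA libraries, against 28.1 to 86.9 in ampullae, so that rare transcripts had less chance to be seen in BSA cells. One ampullae library stood apart from its label mates. Over the 114 receptor transcripts, SB825-FX replicate 1 had a Pearson correlation of log2 values of 0.717 and 0.722 with the other replicates of its line, which correlated at 0.931 with each other. With the FEA and FDA libraries it correlated at 0.850 to 0.904. Counts are therefore given with and without it. That alternative was chosen after seeing the data.

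BSA cells carried a receptor set that differed from the ampullae of all 5 lines at single transcripts, and lower levels of a few signalling transcripts. Of 100 transcripts tested with limma on log2(value + 1), 16 passed an adjusted p of 0.05, which is 16% of those tested: 9 were higher (9%) and 7 lower (7%) in BSA cells. All 9 that were higher are receptors, 3 FF and 6 FcoR. The 7 that were lower comprised PI3K, MEK, ERK, Shc, FuHc-Sec and the receptors FcoR38 and FcoR65. Without SB825-FX replicate 1, 13 transcripts passed, 6 higher and 7 lower. At an unadjusted p under 0.05 there were 33. Of the 9 higher transcripts 5 were listed at 0 in all ampullae, and of the 7 lower ones 2 were listed at 0 in SB04 to SB06. A transcript seen in 1 source passed the filter (a value of at least 1 in 3 columns) through that source and had to differ, so its values are given as a description, and a p only where an alternative ended the call. Without SB05, 10 passed, 6 higher and 4 lower. Without SB04, 20 passed, 9 higher and 11 lower.

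The median log2 difference over the 100 transcripts, BSA minus ampullae, was -0.36 on the deposited scale. It was -0.02 with each library scaled to its own sum and 0.05 with each library scaled to its signalling and Fuhc transcripts. FcoR3 and NF-kB missed the threshold in the fit above and passed it under another scaling, with the values given beside them. Scaling was not the only setting that added calls. On the deposited scale FcoR3 passed with no filter (adjusted p = 0.0262 in limma) and without SMGO (0.0164). With all columns given 1 common floor of 169, FcoR3 (0.0245), FcoR33 (0.000767) and FcoR58 (0.0159) passed as higher, named after their values were seen.

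The receptors that set BSA cells apart were present at high levels in all 3 libraries and listed at 0 in ampullae. FF33, a member of the fester family, had 8415, 10172 and 5843 TMM-scaled TPM in SB04, SB05 and SB06, and was listed at 0 in all 16 ampullae libraries. FcoR66 had 4352, 9207 and 7604 in the same BSA libraries and was likewise listed at 0 in all 16 ampullae libraries. FcoR56 had 1770, 1070 and 4685 in BSA cells against 0 in ampullae. For these 3 receptors no BSA library overlapped any ampullae library. No fold is given, since one group is listed at 0.

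FcoR43 had 12569, 8310 and 6497 in BSA cells, and in ampullae it was detected in 1 of 16 libraries, an SMGO library at 158. FcoR13 and FcoR11 showed the same pattern at low levels. FcoR13 had 624, 377 and 425 in BSA cells and was listed at 0 in all ampullae libraries. FcoR11 had only 84.1, 169 and 229 in BSA cells, again against 0 in ampullae, and with all columns given 1 common floor of 169 its log2 difference was 0.14 and it did not pass (adjusted p = 0.351 in limma).

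FF11, FF6 and FcoR72 were higher in BSA cells with some expression in ampullae, and each of these calls depended on single libraries. FF11 had 6788, 12671 and 18327 in BSA cells, against line means of 3621, 0, 50.4, 181 and 0 (adjusted p = 0.0102 in limma). Its SB825-FX value came from replicates 2 and 3, at 5485 and 5377, while replicate 1 was listed at 0. Without replicate 1 the adjusted p of FF11 was 0.0698, and without SB05 or SB06 it was 0.0515 and 0.0551. The BSA libraries were above every ampullae library at FF11.

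FF6 had 5514, 6504 and 4586 in BSA cells, against line means of 188, 115, 133, 1809 and 480. Its mean was 10.2-fold higher in BSA cells, 5535 ± 959 (SD, n = 3), against 545 ± 722 in ampullae (SD, n = 5 lines), with adjusted p = 0.0279 in limma. The call was lost without any one BSA library (adjusted p = 0.0710, 0.121 and 0.0944 without SB04, SB05 and SB06) and without SB825-FEA, SB825-FDA or SB825-FX replicate 1 (0.0645, 0.0649 and 0.0712). FcoR72, the most abundant receptor of BSA cells, had 32805, 39721 and 54505 there, against line means of 30599, 26531, 20831, 26926 and 23668. The ratio of means was 1.65 and the log2 difference 0.72 ± 0.20 (SE; adjusted p = 0.0461 in limma). BSA libraries lay above all line means, but single libraries overlapped. SB825-FX replicate 2 (33993), SMGO replicate 2 (33856) and SMH replicate 3 (33019) were above SB04. The adjusted p was 0.0557 without SB825-FX replicate 1, 0.121 without SB05 and 0.120 without SB06. The FcoR72 call was also lost without SB825-FEA, SB825-FDA, SMGO or SMH (0.0651 to 0.1003), at pseudocounts of 100 and 1000 (0.0544 and 0.0529), with no filter (0.0661), with no variance trend (0.145), with lines averaged on the scale of the values (0.0532) and with the SB825 lines as 1 column (0.0895).

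**Figure D1:**
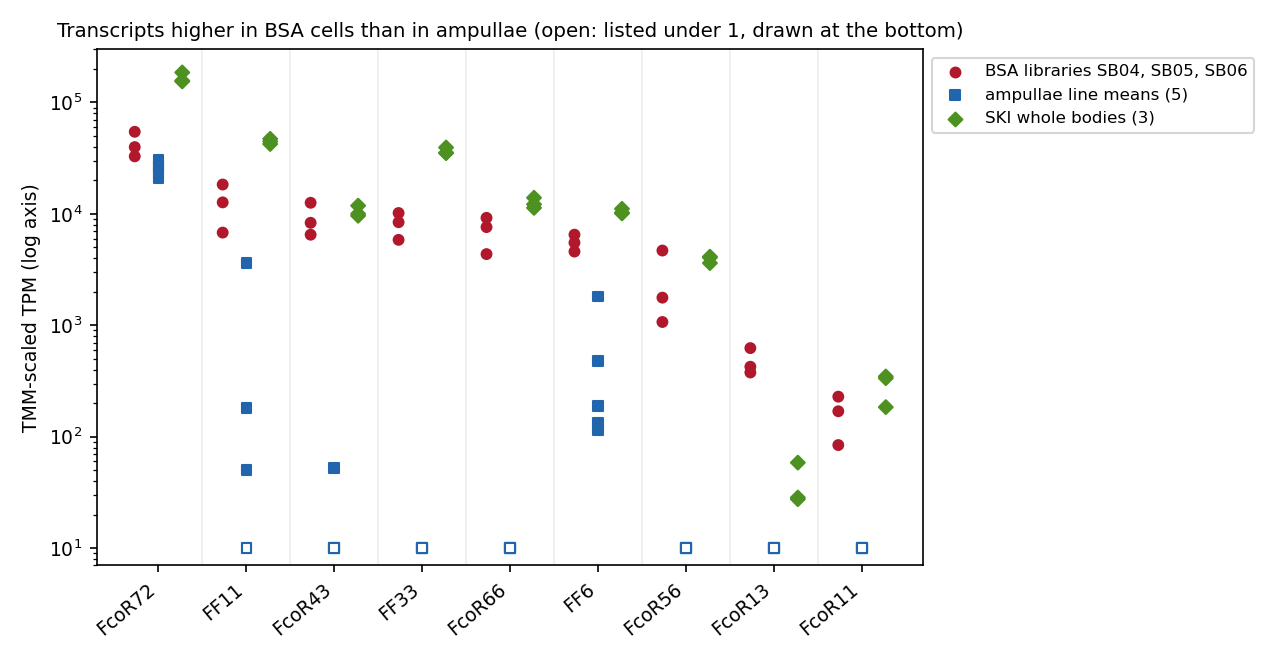
Values of the 9 transcripts higher in BSA cells than in ampullae, in TMM-scaled TPM on a log axis, for the 3 BSA libraries (red circles), the 5 ampullae line means (blue squares) and the 3 whole-body libraries of SKI (green diamonds). Open symbols stand for values listed under 1. FF33, FcoR66, FcoR56, FcoR13 and FcoR11 have no ampullae value of at least 1. All 9 are present in every SKI library, FcoR13 only at 27.5 to 58.5.

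Other receptors were found in ampullae and not in BSA cells. FcoR38 was listed at 0 in SB04, SB05 and SB06, against line means of 4470, 15617, 17351, 542 and 161, and was detected in all 16 ampullae libraries. Within SB825-FX, replicate 1 had 13184 and replicates 2 and 3 had 160 and 68.1. FcoR65 was also listed at 0 in BSA cells, against 237, 455, 81.6, 113 and 155 in ampullae, values that lie partly under the lowest nonzero value of SB05. With a common floor of 169 the adjusted p was 0.264 for FcoR38 and 0.490 for FcoR65, and with a pseudocount of 100 it was 0.0809 for FcoR38 and 0.0618 for FcoR65 (limma). FcoR65 also missed the threshold without SB05 or SB06 (adjusted p = 0.0703 and 0.0628). FcoR23 was the third receptor found in all 5 lines and in no BSA library, and it did not pass the test.

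Of the abundant receptors present in both sources, FF17, FF13, FF4 and FF14 did not pass the test. FF17 had 14980, 25765 and 29945 in BSA cells, against 13975, 15202, 9961, 37968 and 19372 in the lines (adjusted p = 0.509, limma). FF13 had 12853, 16011 and 13777 in BSA cells, against 8418, 9249, 8017, 16393 and 13712 in ampullae (adjusted p = 0.315). Both groups overlapped at these 2 transcripts. FF4 had 11593, 14336 and 17423 in BSA cells, against 18421, 24903, 26735, 166 and 16801, so that SMGO alone among the lines was near absence. Its difference was 1.71 ± 2.71 (SE) with all lines and -0.57 without SMGO. FF14 had 13628, 16347 and 20935 in BSA cells, against 3837, 11771, 6419, 27238 and 0 in ampullae, SMH being the line listed at 0.

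FF10, the most abundant FF transcript of SMGO and SMH ampullae, at 58711 and 38934, was listed at 0 in all 3 BSA libraries and was absent or at most 93.5 in the SB825 line means, and it did not pass the test. FF12 had 8211, 5708 and 7571 in BSA cells, against 8359, 12373, 12638, 14554 and 14320 in ampullae. All 3 BSA values were below the line means, but the difference missed the threshold (-0.74 ± 0.24 SE, adjusted p = 0.0807). Single ampullae libraries lay within the BSA range at FF12: SB825-FX replicate 1 at 6613 and the SMGO technical libraries at 5884 and 7506. FcoR12 and FcoR48 were high in BSA cells and in SB825 ampullae and low in SMGO. FcoR12 had 15962, 10754 and 16645 in BSA cells, against 9642, 8981, 7966, 176 and 3071. FcoR48 had 14069, 20464 and 20897 in BSA cells, against 13041, 17442, 16850, 241 and 1134. FcoR39, at 11404 to 12312 in the 3 SB825 lines, had 308, 0 and 183 in BSA cells and at most 25.9 in SMGO and SMH.

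By family, 21 of 45 FF transcripts could be tested, of which 3 were higher, 0 lower and 18 not past the threshold, with a median log2 difference of -0.68. Of 69 FcoR transcripts 56 could be tested, of which 6 were higher and 2 lower, with a median of 0.35. Over all 100 transcripts the shares were 9% higher and 7% lower and the median -0.36. Groups did not overlap at 28 of the 100 transcripts (28%), with BSA cells above at 13 (13%) and below at 15 (15%); among these were 3 FF above and 3 below, and 10 FcoR above and 4 below. FcoR3 was an example outside the named set, picked after its values were seen: it had 4373, 4373 and 4851 in BSA cells, against 1632, 1803, 2035, 3152 and 2360, with adjusted p = 0.0677 in limma. It passed with library sums as the scale (1.45 ± 0.31 SE, adjusted p = 0.0123) and with signalling and Fuhc transcripts as the scale (1.52 ± 0.31 SE, adjusted p = 0.0101).

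**Figure D2:**
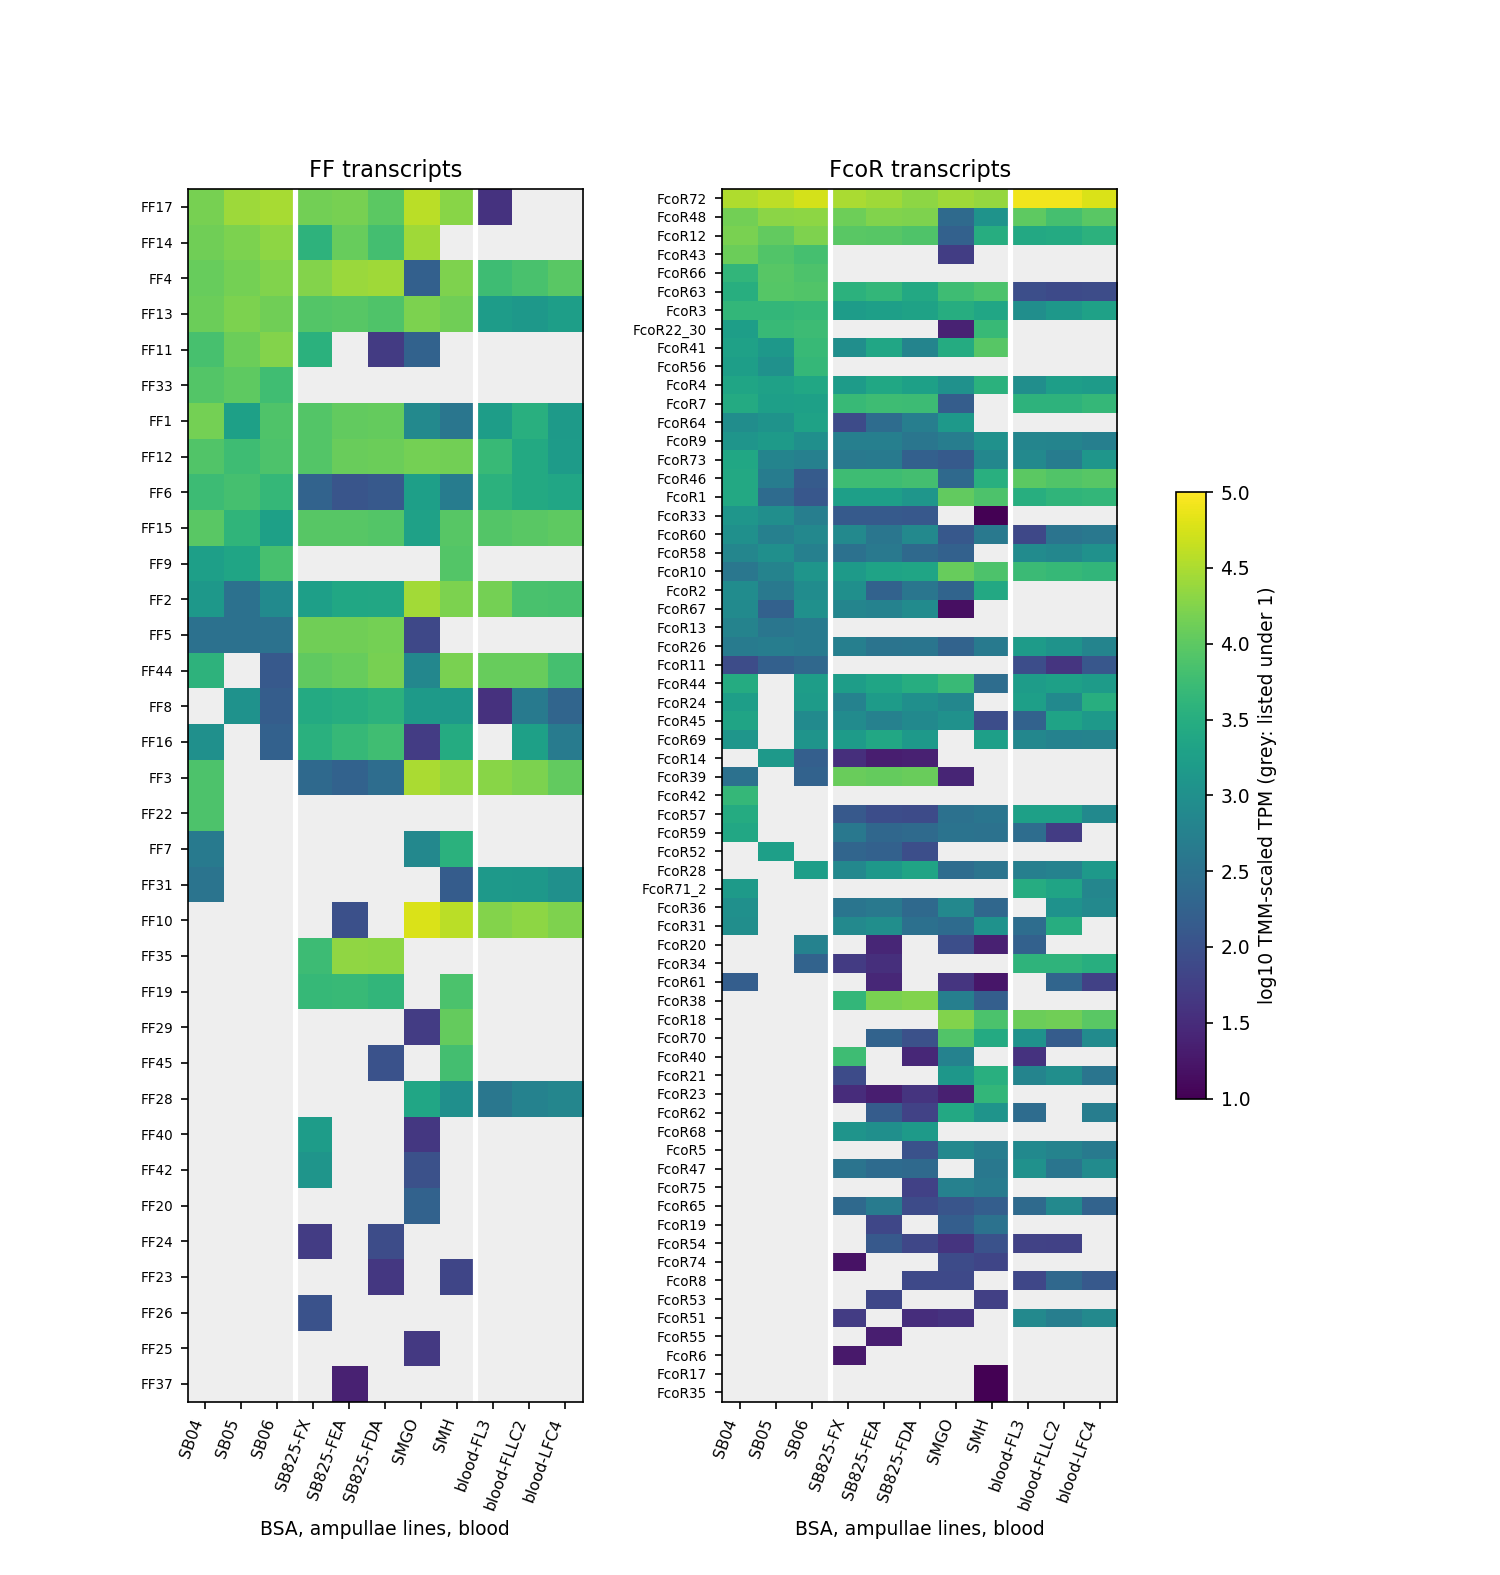
FF (left) and FcoR (right) transcripts detected in BSA cells or ampullae, as log10 TMM-scaled TPM, with columns for the 3 BSA libraries, the 5 ampullae line means and the 3 blood libraries; grey marks values listed under 1. The rows of FF33 (left) and of FcoR43, FcoR66 and FcoR56 (right) are filled in BSA cells and grey or nearly so in ampullae and blood. The lower part of each panel holds transcripts seen in no BSA library.

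Numbers of receptors per library overlapped. SB04, SB05 and SB06 held 19, 14 and 16 FF transcripts, against 14 to 20 (median 17) in the 16 ampullae libraries. They held 38, 28 and 35 FcoR transcripts, against 32 to 41 (median 35). In the 3 BSA libraries 13 FF and 26 FcoR transcripts were common to all, and 8 of these FF and 15 of these FcoR were also found in all 5 lines. The BSA libraries shared a Jaccard index (shared over total detected receptors) of 0.65 for SB04 with SB05, 0.742 for SB04 with SB06 and 0.788 for SB05 with SB06. Within ampullae lines the index was 0.619 to 0.869 over 18 pairs of libraries, with a mean of 0.745.

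SB04 held receptors that the other BSA libraries lacked. FF3, FF7, FF22, FF31, FcoR31, FcoR36, FcoR42, FcoR57, FcoR59, FcoR61 and FcoR71_2 were detected in SB04 and listed at 0 in SB05 and SB06. FF3 had 7745 in SB04, against 30771 and 22390 in SMGO and SMH ampullae and 178 to 268 in the SB825 lines. FF1 varied in level, with 14357, 1874 and 7815 in the 3 BSA libraries. Conversely, 14 FF and 22 FcoR transcripts were detected in at least 1 line and in no BSA library, of which 5 FF and 9 FcoR had line values under 169 throughout, the lowest nonzero value of SB05.

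As a share of the library, FcoR transcripts made up more of the values in BSA cells than in ampullae, but not more than in blood. The share was 17.8%, 19.8% and 16.5% in SB04, SB05 and SB06, against 13.2%, 13.9%, 11.8%, 9.12% and 9.70% in the lines. BSA cells and ampullae did not overlap, and no test was made. In the blood libraries the share was 18.3% to 19.1%, within the range of BSA cells. FcoR72 alone had 83056, 80864 and 59476 in blood, above every BSA library. Without FcoR72 the blood share was 8.72% to 9.93%. Without FcoR72 the FcoR share was 13.5%, 13.5% and 10.8%, against 9.61%, 10.9%, 9.62%, 6.84% and 7.51%, so that SB04 and SB05 lay above every line and SB06 within them. The FF share was 16.7% ± 2.12 in BSA cells (SD, n = 3) and 17.3% ± 2.19 in ampullae (SD, n = 5 lines). The share of the 4 Fuhc products was 7.51% to 8.98% in BSA cells, against 10.1% to 13.7% in the lines and 6.78% to 7.47% in blood. Signalling transcripts took 57.2% ± 4.46 in BSA cells (SD, n = 3) and 59.7% ± 1.26 in ampullae (SD, n = 5 lines).

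**Figure D3:**
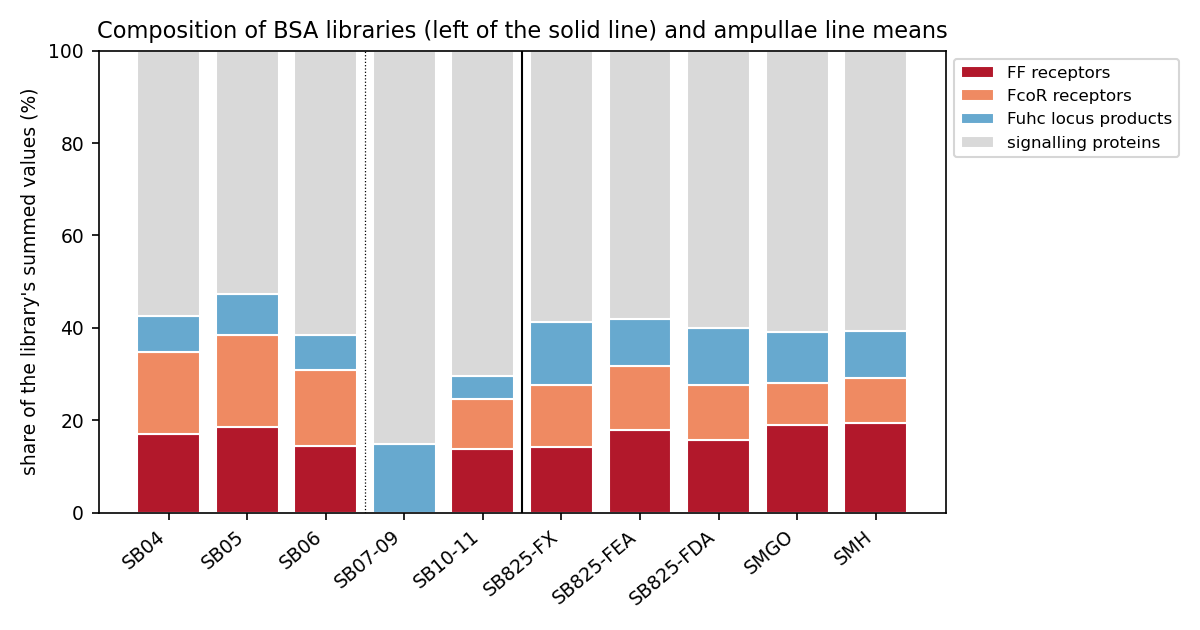
Share of each library's summed values taken by FF, FcoR, Fuhc and signalling transcripts, in percent, for BSA libraries SB04 to SB06, the sparse BSA libraries SB07-09 and SB10-11, and the 5 ampullae line means. FcoR takes 16.5% to 19.8% in SB04 to SB06 and 9.12% to 13.9% in ampullae, and SB07-09 holds no receptor.

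Among the 4 products of the Fuhc locus, the secreted form fell and the others did not pass the test. FuHc-Sec, the secreted Fuhc product, had 16978, 10635 and 14219 in BSA cells, against 53817, 29976, 50846, 26360 and 44015 in ampullae. All BSA values lay under all line means, but 1 single ampullae library, SMGO replicate 2, had 16605, below SB04. The mean was 13944 ± 3180 (SD, n = 3) in BSA cells and 41003 ± 12310 (SD, n = 5 lines) in ampullae, a log2 difference of -1.48 ± 0.30 (SE; adjusted p = 0.0102 in limma). It missed the threshold with library sums as the scale (-1.13, adjusted p = 0.0645), with signalling and Fuhc transcripts as the scale (-1.07, adjusted p = 0.0721), and without SB05 (-1.30, adjusted p = 0.0515).

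FuHc-Tm, the transmembrane product, had 434, 4815 and 3403 in BSA cells, against 1699, 1574, 1022, 172 and 372 in ampullae (adjusted p = 0.318, limma). SB05 and SB06 were above all lines and SB04 was within them. HSP40L, a chaperone-like product of the locus, had 2125, 4121 and 7171 in BSA cells, against 2168, 2507, 2213, 2928 and 3653 (adjusted p = 0.318). BHF, the histocompatibility factor whose alleles predict fusion, had 38724, 37072 and 46350 in BSA cells, against 57574, 56068, 65196, 100664 and 61524. The BSA values were below every line mean, with a difference of -0.65 ± 0.22 (SE, adjusted p = 0.0859 in limma). Single libraries overlapped: SMH replicate 3 had 22282, below all BSA values, and SB825-FX replicate 2 had 40664, within their range.

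Of the 19 signalling transcripts, 4 fell in BSA cells, 0 rose and 15 did not pass, beside 7% lower and 9% higher of all 100 transcripts. The median was -0.35, against -0.36 over all transcripts. Of the 19 differences 15 were below 0 on the deposited scale, 10 with library sums as the scale and 7 with signalling and Fuhc transcripts as the scale, where 1 transcript, NF-kB, passed as higher. PI3K, the kinase that makes the membrane lipid PIP3, fell most. It had 6298, 5241 and 5129 in BSA cells, against 18009, 20014, 20950, 25583 and 20948 in the lines. The 3 BSA values were all less than the lowest single ampullae library, 14616. The ratio of means was 0.263 and the log2 difference -1.91 ± 0.18 (SE; adjusted p = 9.3e-05 in limma), and with library sums as the scale the difference was -1.56 (adjusted p = 0.000482).

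Both protein kinases at the end of the Ras cascade fell, while Ras and Raf did not pass the test. MEK, the kinase that activates ERK, had 12621, 12827 and 19167 in BSA cells, against 30811, 29918, 33705, 41500 and 40175 (difference -1.25 ± 0.20 SE, adjusted p = 0.00345 in limma). ERK, its target, had 14797, 18837 and 28854 in BSA cells, against 39600, 42674, 45437, 57867 and 59013 (-1.26 ± 0.24 SE, adjusted p = 0.00948). BSA libraries lay below all lines at both, and both kept their call with library sums as the scale, at -0.90 and -0.91 (adjusted p = 0.000482 and 0.00523). Ras, the most abundant transcript of each of the 3 BSA libraries, had 134522, 70361 and 187102 in BSA cells, against 97625, 98839, 128950, 151744 and 127684 (adjusted p = 0.921). Raf differed by 0.08 ± 0.22 (SE, adjusted p = 0.802).

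Shc, an adaptor that links receptors to the Ras pathway, had 9146, 8990 and 20240 in BSA cells, against 25140, 24577, 27906, 35937 and 34326. SB06 lay nearer to the ampullae than the other BSA libraries, and above the single library SB825-FEA replicate 2, at 19385. The difference was -1.30 ± 0.30 (SE; adjusted p = 0.0216 in limma), and the adjusted p was 0.0703 without SB04, 0.0964 without SB05, 0.0738 with the SB825 lines as 1 column and 0.0672 with no variance trend. Rac, a small GTPase of the cytoskeleton, had 51968, 34005 and 70008 in BSA cells, against 71114, 74059, 85751, 144814 and 135777, and did not pass (-0.96 ± 0.33 SE, adjusted p = 0.0883). PAK1, a kinase that Rac activates, had 1992, 4436 and 8664 in BSA cells and 7565 to 15166 in the lines (adjusted p = 0.101).

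By role, 0 of 2 tyrosine kinases (SYK and yes-like), 0 of 2 phosphatases (SHP2 and SHIP), 1 of 3 lipid signalling proteins, 1 of 4 adaptors and exchange factors, 2 of 6 Ras and MAP kinase members and 0 of 2 transcription factors passed, against 16% of all 100 transcripts; sets of 2 to 6 members are too small to be set apart from that share. SYK, the kinase that docks on phosphorylated receptor tails, had 5889, 5750 and 7200 in BSA cells, against 5130 to 8118 in the lines, a difference of -0.08 ± 0.23 (SE, adjusted p = 0.802 in limma). SHP2 differed by -0.07 ± 0.22 and NF-kB, a transcription factor of immune responses, by 0.29 ± 0.21 (SE; adjusted p = 0.802 and 0.315). With signalling and Fuhc transcripts as the scale the NF-kB difference was 0.71 ± 0.16 (SE, adjusted p = 0.0170). A p above the threshold at this size does not show that levels were equal.

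**Figure D4:**
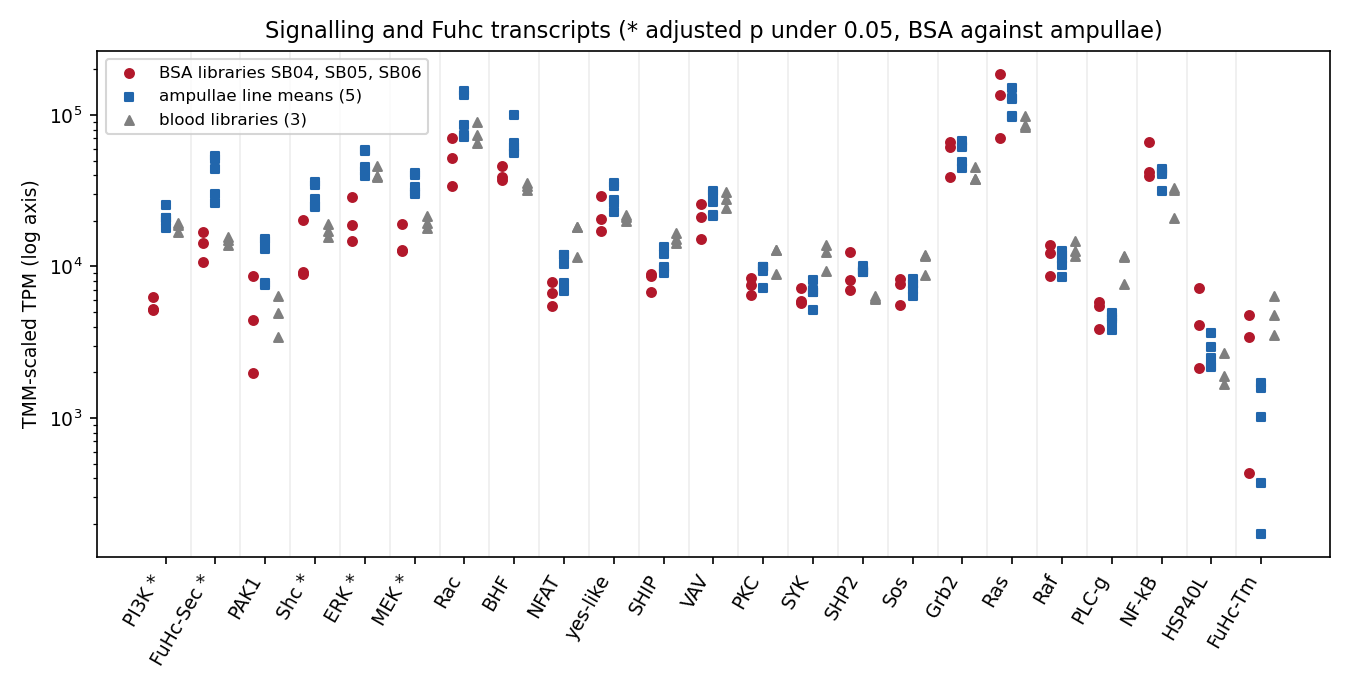
Signalling and Fuhc transcripts in the 3 BSA libraries (red circles), the 5 ampullae line means (blue squares) and the 3 blood libraries (grey triangles), in TMM-scaled TPM on a log axis, ordered by the difference between BSA cells and ampullae. An asterisk marks an adjusted p under 0.05 for BSA cells against ampullae: PI3K, FuHc-Sec, Shc, ERK and MEK, where all red points lie under the blue ones.

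Vessels hold blood cells, so BSA cells were also compared with blood, in a fit of their own. Of 91 transcripts tested, 48 (52.7%) passed: 24 were higher (26.4%) and 24 lower (26.4%) in BSA cells. The groups did not overlap at 61 (67%), with BSA cells above at 30 (33%) and below at 31 (34.1%). The receptors with the greatest differences were again present in one source and listed at 0 in the other. FF14, FF11, FcoR43, FF33 and FcoR66 were at 4352 or more in every BSA library and listed at 0 in all 3 blood libraries. Of the 24 higher transcripts 15 were listed at 0 in all blood libraries, and of the 24 lower ones 12 in SB04 to SB06; these passed the filter through 1 source and are given as a description, without a p.

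FF10, FF41, FcoR18, FF27 and FcoR47 showed the reverse. FF10 was listed at 0 in BSA cells, against 18243, 20946 and 16680 in blood. FF41 was listed at 0 in BSA cells, against 18794, 19339 and 15085 in blood. FcoR18 was listed at 0 in BSA cells, against 12777, 13476 and 9358 in blood. All 3 were thus present in every blood library and in no BSA library. FF13, chosen after its values were seen, was detected in both: 12853, 16011 and 13777 in BSA cells, against 1625, 1352 and 1765 in blood, a difference of 3.17 ± 0.18 (SE; adjusted p = 2.97e-05 in limma).

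Signalling transcripts that passed against blood were all lower in BSA cells, 6 of 19, beside 26.4% of all 91 transcripts: PI3K, ERK, SHIP, SYK, NFAT and PLC-g, named after their values were seen. PI3K had 6298, 5241 and 5129 in BSA cells, against 18852, 19496 and 17004 in blood (-1.74 ± 0.14 SE, adjusted p = 0.000148 in limma). ERK had 14797, 18837 and 28854 in BSA cells, against 39405, 46374 and 39062 in blood (-1.05 ± 0.27 SE, adjusted p = 0.0230). The ERK call was lost without SB05 (0.0695) and without FL3, FLLC2 or LFC4 (0.0626, 0.0852 and 0.0608). PLC-g was lost without FL3 or FLLC2 (adjusted p = 0.0735 and 0.0841) and SYK without FLLC2 (0.0610). SHIP, the phosphatase that removes a phosphate from PIP3, differed by -0.92 ± 0.16 (SE, adjusted p = 0.00479). MEK (-0.43 ± 0.21 SE, adjusted p = 0.131) and FuHc-Sec (-0.11 ± 0.20 SE, adjusted p = 0.649) did not pass. Both comparisons use the same BSA libraries, so their shared PI3K and ERK values are not independent.

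The receptor set of BSA cells was then set beside every other group of the series, as a description with no test. The mean Jaccard index with SB04 to SB06 was highest for the whole bodies of SKI, 0.662 (0.574 to 0.716 over 9 pairs). It was 0.555 with SB825-FEA, 0.549 with SB825-FDA and 0.527 with SB825-FX ampullae, 0.433 with SMGO and 0.421 with SMH ampullae, and 0.427 with blood. Whole bodies of SB825, SMGO and SMH gave 0.430, 0.409 and 0.406. Among sorted cells, IA6-81C-positive gave 0.532, above SB825-FX, IA6-81C-negative 0.503 and IA6-81A-positive 0.499. The remaining IA6, ALDH and male groups gave 0.409 to 0.477. For SB04 alone IA6-81C-positive came next after SKI, at 0.602, above all ampullae lines. SKI was the highest group for each of the 3 BSA libraries.

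Of the 39 receptors found in all 3 BSA libraries, 37 were in all 3 SKI whole-body libraries, which is 94.9% of the BSA list and 60.7% of the 61 receptors in the SKI list. The corresponding figures were 28 for SB825-FDA and 28 for SB825-FEA ampullae (71.8% of the BSA list, and 63.6% and 60.9% of the line's own), and 23 for blood (59.0% and 48.9%). All 9 receptors higher in BSA cells than in ampullae were detected in all 3 SKI libraries, at unlike levels. FcoR13 had only 28.4, 27.5 and 58.5 in SKI, under the lowest nonzero value of every BSA library. FcoR66 had 13947, 12172 and 11314 in SKI whole bodies, and was otherwise seen in 1 of 53 libraries outside BSA cells, ampullae and SKI, at 98.2. FF11 had 44569, 42343 and 47106 in SKI and was likewise seen in 1 of those 53, at 111. FF33 had 39381, 35109 and 35268 in SKI and was seen in 3 of the 53, at up to 16079. The others were seen more often there: FcoR56 in 5 (up to 6021), FcoR43 in 7 (up to 9256), FcoR11 in 14 (up to 1159), FcoR13 in 16 (up to 3363), FF6 in 44 (up to 6187) and FcoR72 in all 53.

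FF9 and FcoR22_30 were the 2 receptors of all 3 BSA libraries that were not in all SKI libraries. FF9 had 1807, 2234 and 6954 in BSA cells, against 8400 in SMH ampullae and 0 in the other lines. FcoR22_30 had 1720, 5025 and 5622 in BSA cells, against 4929 in SMH ampullae and at most 24.0 in the other lines. In PI3K, SKI whole bodies had 7067, 7866 and 11356, nearer to BSA cells than to ampullae, while MEK (39948, 44131 and 38834) and ERK (75527, 75772 and 76531) were within or above the range of the ampullae lines there. Whether colony or cell type moves with these transcripts was not tested, because the labels name no colony for the BSA libraries.

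**Figure D5:**
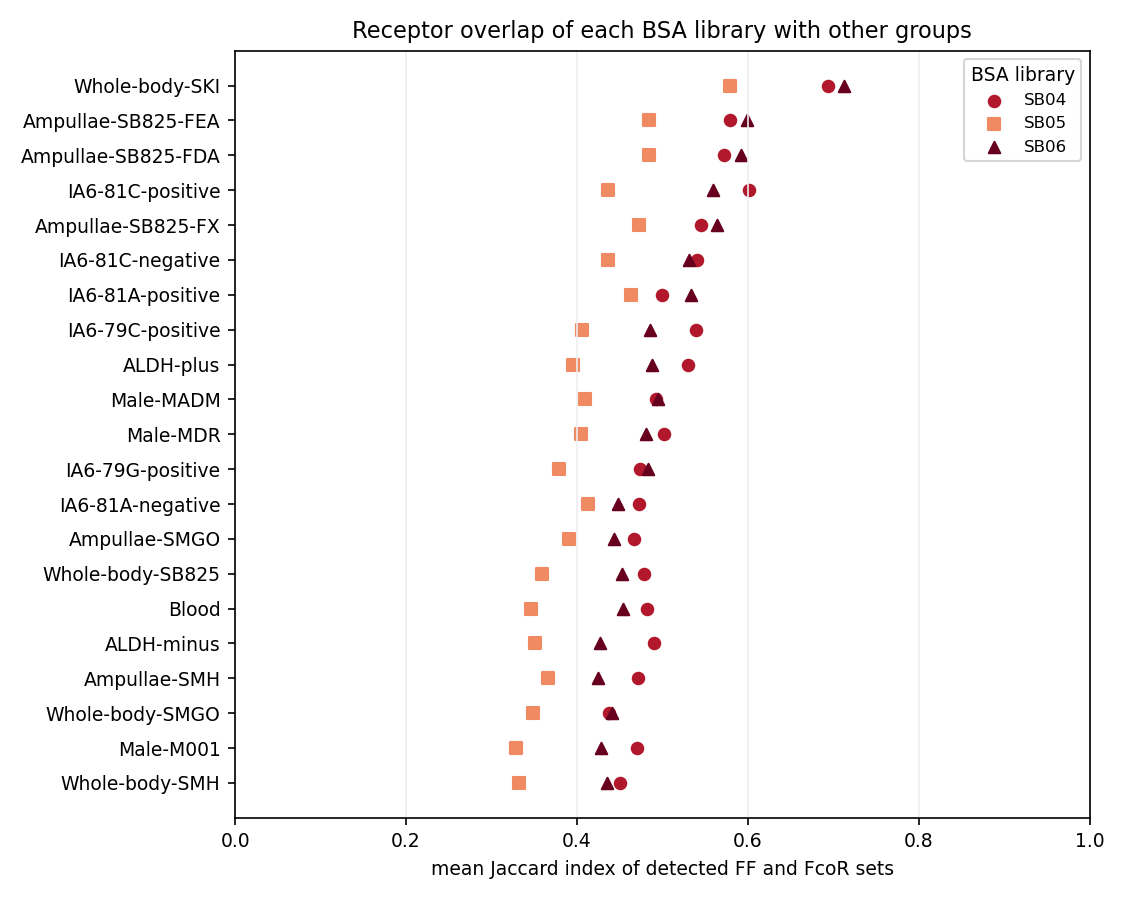
Mean Jaccard index of detected FF and FcoR transcripts between each BSA library (SB04 circles, SB05 squares, SB06 triangles) and the libraries of each other group. SKI whole bodies stand highest for all 3 BSA libraries, at 0.579 to 0.713, followed for SB05 and SB06 by the SB825 ampullae, and SB05 lies left of the others throughout.

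The sparse BSA libraries held few transcripts, and each of them was present in SB04, SB05 and SB06. SB07-09 listed 7 transcripts, none a receptor, with Ras alone at 58.0% of its sum, then BHF, Rac, ERK, yes-like, Sos and VAV. SB10-11 listed 18 transcripts, of which 2 were FF and 5 FcoR. FF17 had 30480 and FF14 had 12237 there, against 14980 to 29945 and 13628 to 20935 in SB04 to SB06. FcoR48 had 13524, FcoR12 had 4365, FcoR3 had 3386 and FcoR63 had 3169, while FcoR9 had 8753, above its 970 to 1509 in SB04 to SB06. The lowest nonzero value was 2337 in SB07-09 and 2034 in SB10-11, so that a transcript at the level of FcoR13 or FcoR11 could not be seen in them. Absence was not limited to rare transcripts. FcoR72, FF11, FF33, FcoR43, FcoR66 and FF6 were listed at 0 in both, although each had 4352 or more in SB04, SB05 and SB06. With both included as replicates, 1 transcript, FcoR38, passed against ampullae. FcoR38 was already listed at 0 in SB04 to SB06, so the sparse libraries only added values of 0 and are no support for that call.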

How the data were processed

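Per the labels, RNA was poly-A selected and sequenced as paired ends; 2 kits and 2 centres are named without assignment to libraries. The submitters' processing notes name Trim Galore, RSEM and kallisto without versions; the genome build is not given in the sources used here. The authors' deposited values are a signal per transcript, read as TMM-scaled TPM (the table's name states TMM only). Of 158 columns, 77 match a library; 81 are not used here.

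Values were analysed as log2(value + 1); lines were averaged on the log scale for tests and on the value scale for printed means. Transcripts at 1 or more in 3 or more columns were tested with limma 3.58.1 (R 4.3.3), variance trend, two-sided, Benjamini-Hochberg adjustment over all transcripts tested, threshold 0.05; checked on simulated data. Python 3.11.15, numpy 2.4.6, pandas 2.3.3 and matplotlib 3.10.9 were used.

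The samples, lists and tests were chosen with earlier results of these data known. Named transcripts are up to 10 past the threshold in each direction, the 5 highest FF and FcoR of each group, the 4 Fuhc products, and, against blood, 5 in each direction; others are marked or belong to the lists of roles. Alternatives were pseudocount, filter, floor, scaling, averaging and left-out libraries. Reference names (Bs_hap1) matched 0 rows, so no positions or sequences are given.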

Additional observations from a re-analysis of the deposited data

Results flagged for a closer look

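Each of the following is a line mean far from the other 4 ampullae lines by Dixon's test at the 95% level. Chance meets that level in about 1 in 20 groups of normally distributed values. The rate does not hold where lines are listed at 0, as at FF11 and FcoR43. BHF was 100664 in SMGO, against 56068 to 65196 in the other lines. FF11 was 3621 in SB825-FX, against 0 to 181, and came from replicates 2 and 3 alone. FF6 was 1809 in SMGO, against 115 to 480. FcoR43 was 52.6 in SMGO, against 0 in the others, and rests on 1 library. With the other 4 lines at 0, any value above 0 would have been flagged.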

How the results depend on the processing

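The counts of calls against ampullae (16 in all, 9 higher, 7 lower) stayed within 1.5 times under the other pseudocounts, filters, floor and scalings. With ampullae as separate libraries, 27 transcripts passed and 16 were lower; the added columns share lines, so that p-values are then too small. With all 5 BSA libraries, 1 passed, 0 higher and 1 lower. Leaving out 1 BSA library or line gave 10 to 20 in all, 6 to 11 higher and 4 to 11 lower; without SB825-FX replicate 1 there were 13, 6 higher and 7 lower. With the 3 SB825 lines as 1 column, chosen after seeing the data, 13 passed, and Shc, FF6 and FcoR72 did not. Against blood, leaving out 1 library gave 38 to 54 in all, 21 to 24 higher and 17 to 30 lower. With detection at 169, line means held 16.8 FF and 32 FcoR transcripts, against 20.6 and 44.8 at a value of 1. With library sums as the scale the FF total differed by -0.045 (log2) and the FcoR total by 0.66, against -0.39 and 0.31. With all 5 BSA libraries the direction turned for FF13 (-5.10), FF17 (-2.39), FF4 (-3.81), FcoR12 (-0.54), FcoR72 (-5.42), FuHc-Tm (-0.34) and HSP40L (-4.17), where the 0 values of the sparse libraries enter; without SMGO it turned for FF4 (-0.57 to 2.36 over the left-out libraries and lines), and with SB825 as 1 column for FcoR39 (0.057), and the cause was not tested. No paired analysis was possible because the BSA libraries carry no number shared with ampullae or blood libraries. Depth is unknown, which limits every value of 0.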
